A study of Mus musculus with 60 samples.

Results

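KLF4 binding was mapped by chromatin immunoprecipitation and sequencing (ChIP-seq) in wild-type (WT) mouse embryonic stem (ES) cells, with and without etoposide. Members were the 4 KLF4 peak lists labelled WT, 2 untreated and 2 from cells given 10 µM etoposide for 3 h, out of 60 samples in the series and 16 KLF4 samples. All cells were grown with knockout serum replacement and leukemia inhibitory factor (LIF), and the antibody was a KLF4 antibody from R&D Systems. The other KLF4 samples came from 3 derived lines and served only for comparison: a knockout of the long noncoding RNA Lnc956 (lnc956_KO), the knockout with full-length Lnc956 added back (FL_rescue), and the knockout given Lnc956 without nucleotides 862 to 1253 (delta862-1253_rescue). Nothing in the labels ties replicates to separate cultures, and their spread may be technical. Further readouts served beside KLF4: P53 ChIP-seq and RNA-seq, each from WT and Lnc956 knockdown cells, untreated or given 10 µM etoposide, with 2 libraries a group. The WT groups of these were compared, and the knockdown libraries entered only the RNA spread and 1 count of P53 peaks. Peaks of the 4 WT lists that overlapped by 1 bp or more were merged into 34467 sites, of the 54425 sites obtained from all 16 KLF4 lists.

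KLF4 is a zinc-finger transcription factor of the Krüppel-like family that binds GC-rich sequences such as GGGNGTGG. In ES cells it acts downstream of LIF and STAT3 signalling, shares targets with the related KLF2 and KLF5, and helps to keep naive pluripotency genes such as Nanog and Esrrb active. Etoposide traps topoisomerase II on cut DNA, and the resulting double-strand breaks activate P53. The comparison asks where KLF4 is found on the genome before and after this damage.

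The promoters below carry a KLF4 summit of untreated cells and show both outcomes, a site found again after etoposide and a site without a treated peak. They are given 5′ to 3′ from RefSeq, 250 bases before to 50 bases after the gene start, and capitals mark matches to GGGNGTGG on either strand.
Zfp42 promoter, kept site, GRCm38.p6 chr8:43306960-43307259, minus strand: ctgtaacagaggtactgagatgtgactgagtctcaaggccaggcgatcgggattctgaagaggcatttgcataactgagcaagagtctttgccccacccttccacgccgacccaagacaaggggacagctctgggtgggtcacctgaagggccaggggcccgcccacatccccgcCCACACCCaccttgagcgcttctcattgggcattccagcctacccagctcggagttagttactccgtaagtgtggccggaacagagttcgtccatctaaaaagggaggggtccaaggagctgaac
Id3 promoter, kept site, GRCm38.p6 chr4:136143572-136143871, plus strand: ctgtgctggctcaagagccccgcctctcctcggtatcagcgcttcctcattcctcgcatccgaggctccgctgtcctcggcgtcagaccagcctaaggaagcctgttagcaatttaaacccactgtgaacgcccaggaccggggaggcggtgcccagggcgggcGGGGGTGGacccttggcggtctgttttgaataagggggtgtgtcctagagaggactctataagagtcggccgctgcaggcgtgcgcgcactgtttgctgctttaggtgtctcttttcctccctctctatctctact
Klf4 promoter, kept site, GRCm38.p6 chr4:55532426-55532725, minus strand: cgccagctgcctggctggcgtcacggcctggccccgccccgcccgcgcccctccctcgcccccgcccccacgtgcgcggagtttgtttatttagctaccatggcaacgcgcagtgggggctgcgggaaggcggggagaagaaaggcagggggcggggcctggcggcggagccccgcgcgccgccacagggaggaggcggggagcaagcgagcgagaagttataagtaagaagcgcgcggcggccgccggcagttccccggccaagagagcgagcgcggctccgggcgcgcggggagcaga
Tfcp2l1 promoter, lost site, GRCm38.p6 chr1:118627695-118627994, plus strand: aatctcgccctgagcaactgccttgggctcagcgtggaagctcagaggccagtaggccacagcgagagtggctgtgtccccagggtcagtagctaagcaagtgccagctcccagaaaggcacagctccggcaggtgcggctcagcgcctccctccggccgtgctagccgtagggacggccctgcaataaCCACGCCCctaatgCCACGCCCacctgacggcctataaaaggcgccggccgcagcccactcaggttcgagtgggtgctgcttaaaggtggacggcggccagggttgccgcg
Ccng1 promoter, lost site, GRCm38.p6 chr11:40755237-40755536, minus strand: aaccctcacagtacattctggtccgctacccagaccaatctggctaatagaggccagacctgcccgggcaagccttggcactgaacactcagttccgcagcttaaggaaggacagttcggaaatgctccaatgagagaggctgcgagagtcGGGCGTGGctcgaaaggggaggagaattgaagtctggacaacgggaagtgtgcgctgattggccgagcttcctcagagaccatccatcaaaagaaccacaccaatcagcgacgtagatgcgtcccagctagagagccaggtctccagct
Cdkn1a upstream promoter, lost site, GRCm38.p6 chr17:29090729-29091028, plus strand: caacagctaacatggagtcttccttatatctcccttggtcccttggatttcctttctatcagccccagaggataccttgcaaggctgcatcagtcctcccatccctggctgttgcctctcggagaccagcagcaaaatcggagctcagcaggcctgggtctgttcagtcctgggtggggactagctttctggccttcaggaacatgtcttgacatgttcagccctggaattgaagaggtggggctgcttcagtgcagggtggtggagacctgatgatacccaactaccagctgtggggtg
Zfp42, Id3 and Ccng1 hold 1 match each, Tfcp2l1 holds 2, and the Klf4 and upstream Cdkn1a promoters hold none. Among the genes described below, 10 promoter windows held an untreated summit. A match was present in 2 of 5 kept ones, 2 of 4 lost ones and not in that of Klf2, which had a peak in 1 treated library. The values behind each site are given further on.

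Etoposide-treated WT cells gave far shorter KLF4 peak lists. Untreated replicates held 30590 and 27294 peaks and treated replicates 6943 and 5691, a mean of 28942 ± 2331 against 6317 ± 885 (SD, n = 2 each), or 21.8% of the untreated number. Both treated lists were far below both untreated lists, and an exact two-sided permutation test of the log2 peak number gave p = 0.333, the smallest that 2 against 2 libraries allow. Treated peaks were about as wide, with medians of 553 and 568 bp against 518 and 525 bp. The lists carry no read totals, so fewer bound sites, lower enrichment per site and shallower sequencing cannot be told apart by peak number. In the other lines, treated lists had 51.0% of the untreated peak number in FL_rescue and 87.8% in delta862-1253_rescue cells. In lnc956_KO cells the share was 78.7%, a difference smaller than the spread of the untreated lists (27752 ± 6773 against 21835.5 ± 723, SD, n = 2 each). Whether these percentages differ between lines was not tested, since each rests on 2 libraries a group.

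Some values differed between the untreated and treated WT samples across a whole chromosome. Chromosome 6 held 4.39% and 4.29% of the untreated WT peaks, against 7.13% to 9.28% in the other 14 KLF4 libraries, which include 6 untreated libraries of the other lines at 7.13% to 8.25%. In the RNA-seq of WT cells with and without 10 µM etoposide, the median log2 change was 0.56 over 585 genes of chromosome 6, against -0.20 to 0.15 on the other autosomes and X. All 5 Y-linked genes tested rose, with a median log2 change of 1.68. Etoposide and a difference between the untreated and treated WT cultures cannot be told apart in these values. Chromosome number was not measured, and its part in the results was not tested. Summed RNA of 11 fibroblast and feeder markers was 1010 and 977 FPKM (fragments per kilobase of transcript, scaled to sequencing depth) in untreated and 413 and 403 FPKM in treated libraries, with none of them at 0. The Y-linked gene Eif2s3y stood at 2.53 and 2.57 FPKM in untreated and 27.5 and 29.1 FPKM in treated libraries. Ddx3y, also Y-linked, stood at 1.26 and 1.09 FPKM in untreated and 6.02 and 6.48 FPKM in treated libraries. The X-linked Xist stood at 2.26 and 2.08 FPKM in untreated and 0.70 and 0.68 FPKM in treated ones. The 8 ES cell markers were all present, at a sum of 4290 to 5408 FPKM. The main comparisons are given also without chromosome 6.

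Most untreated sites had no treated peak, and treated cells gained few. Of 22533 sites with a peak in both untreated libraries, 4800 (21.3%) had a peak in both treated libraries and are called kept, 16283 (72.3%) had none and are called lost, and 1450 had a peak in 1 treated library. Seen from the treated side, 95.1% of 5050 treated sites were kept untreated sites, and 176 were gained, with no untreated peak. Without chromosome 6 the counts were 4408 kept, 15760 lost and 126 gained. The gained count was 283 without treated replicate 1 and 454 without treated replicate 2. The counts also depended on how peaks were matched and on list length. Overlap by 0.5 of both peaks left 2408 kept and gave 1547 gained sites, and summits within 200 bp gave 942 gained sites. Equal lists were made from the 5691 peaks of highest −log10 q value, the most significant ones, of every library. With these, 66.5% of 5072 untreated sites were kept, 24.5% were lost, and 22.4% of 4696 treated sites were gained.

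The share of sites kept rose with untreated strength. Strength here is the peak caller's own fold over input, a ratio of immunoprecipitated to input signal at the summit, averaged over both untreated libraries. In the lowest of 10 equal groups of untreated sites, with folds of 2.92 to 5.40, 1.29% were kept. The share was 5.19% in the fifth group, 28.2% in the eighth, 56.6% in the ninth and 89.8% in the highest, with folds from 24.3 upward. Without chromosome 6 the highest group stood at 89.5%. Kept sites had median untreated folds of 22.7 and 21.2, and lost sites 7.58 and 7.08. A kept site needs a treated peak above the caller's cutoff. A drop in fold or depth common to all sites would therefore remove weak sites first. The part of the cutoff in this gradient was not tested.

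**Figure D1:**
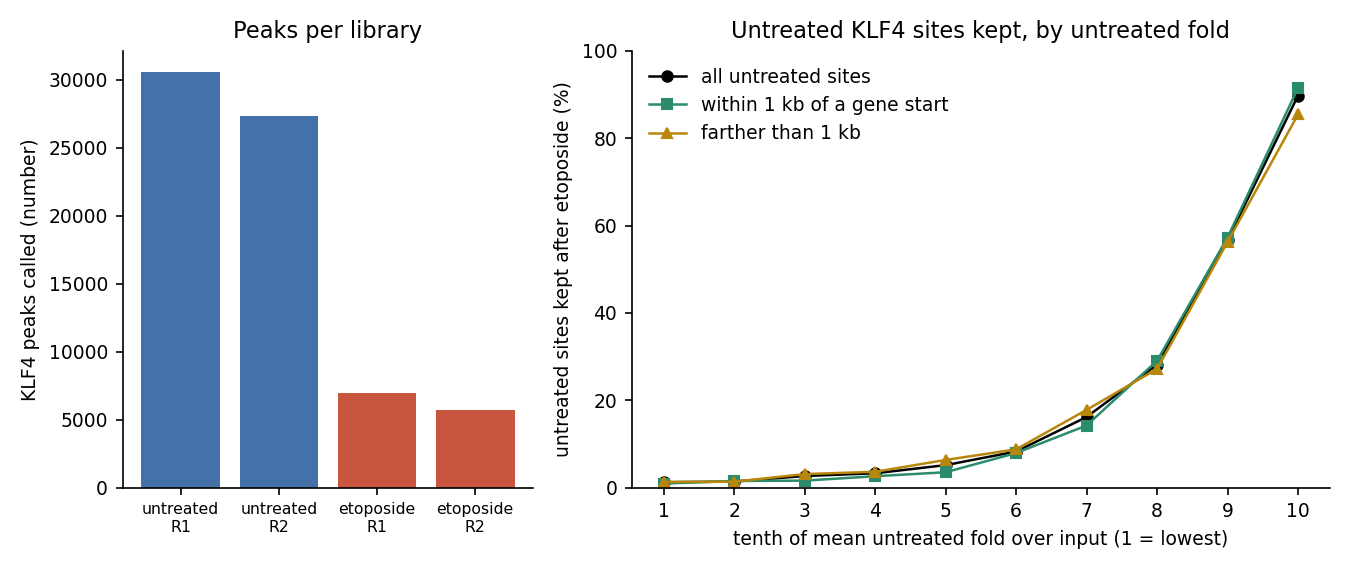
KLF4 peaks called in each WT library (left, bars) and the share of untreated sites kept after etoposide in each decile of mean untreated fold over input (right), for all sites and split by distance to a gene start. Peak numbers are 30590, 27294, 6943 and 5691, and the kept share goes from 1.29% to 89.8% with little separation between near and far sites.

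At the 4800 kept sites the treated fold was mostly lower. Median fold over these sites was 22.7 and 21.2 in the untreated and 8.54 and 8.68 in the treated libraries. Both treated folds lay below both untreated folds at 4460 sites (92.9%), above them at 122 (2.54%), and the groups overlapped at 218. Without chromosome 6, they lay below at 94.9% and above at 1.45% of 4408 sites. The median log2 ratio of treated to untreated mean fold was -1.22, a ratio of 0.429, with its lower and upper decile at -1.89 and -0.35. By comparison, the log2 ratio between replicates had a median of -0.07 with an SD over sites of 0.23 in untreated cells, and a median of -0.03 with an SD of 0.18 in treated cells. After folds were divided by each library's median over the shared sites, which removes a shift common to all sites, the median log2 ratio was 0.13. An exact permutation test of the library medians gave p = 0.333, again the smallest possible. At 3061 sites (63.8%) the mean treated fold was at most 0.5 times the untreated one. The median log2 ratio was -0.51 in the weakest of 5 equal groups of kept sites, -1.14 in the second, and between -1.40 and -1.52 in the others. A list holds no value under the caller's cutoff, so weak sites can appear among the kept ones only where the treated fold stayed high enough to be called.

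**Figure D2:**
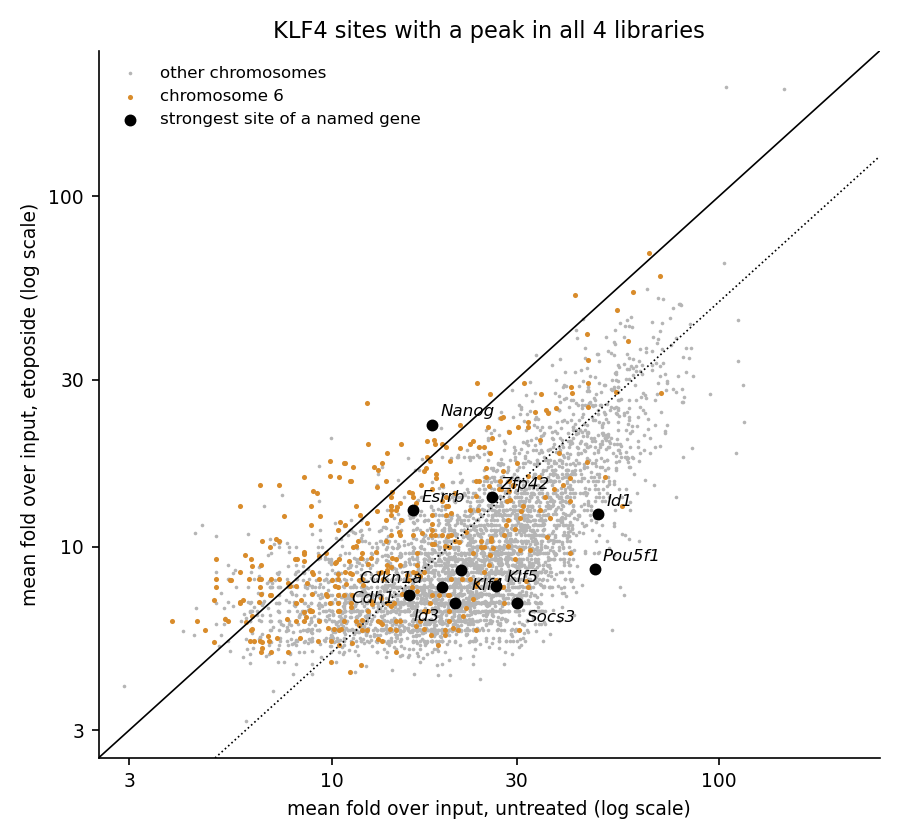
Mean fold over input in untreated (horizontal, log scale) and etoposide-treated cells (vertical, log scale) at the 4800 sites with a peak in all 4 libraries; the solid line marks equal folds and the dotted line 0.5 times the untreated fold. Most sites lie under the solid line, sites of chromosome 6 (orange) lie closer to it, and the labelled Nanog site lies above it.

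Sites near pluripotency, signalling and P53 genes included both kept and lost ones. Among 21 genes looked at, 20 had an untreated site within 10 kb of the gene, and the strongest site was kept for 11 genes, lost for 8 and in 1 treated library only for Klf2. At 10 of the 11 kept sites both treated folds were below both untreated folds, against 92.9% of all shared sites, and the Nanog site alone was above.

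Nanog encodes a homeodomain factor of the naive network. Its site, chr6:122702298-122703253 (mm10), 4669 bp from the gene start, had folds of 19.9 and 16.5 in untreated and 22.6 and 22.05 in treated cells. The treated values were both higher, and the site went from rank 3049 to rank 269 among the 4800 shared sites. It lies on chromosome 6. A P53 peak was called there in both treated WT libraries and in no untreated one. Nanog RNA nevertheless fell, from 176 and 171 FPKM to 52.3 and 48.2 FPKM (log2 change -1.77 ± 0.05 SE, adjusted p = 1.58e-08, limma).

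Pou5f1, which encodes the pluripotency factor OCT4, had 7 untreated sites, of which 2 were kept. The strongest, chr17:35503300-35507435, spanned the gene start and the region upstream, with folds of 44.8 and 50.5 before and 8.86 and 8.38 after etoposide. A neighbour inside the gene, chr17:35508550-35510618, had untreated folds of 35.5 and 42.7 and no treated peak. Both sites were thus among the strong untreated ones, and only the first was called again. Pou5f1 RNA rose slightly, from 1203 and 1282 FPKM to 1487 and 1422 FPKM (log2 change 0.23 ± 0.06 SE, adjusted p = 0.00446, limma).

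Esrrb and Zfp42 (also called Rex1), both markers of the naive state, kept their strongest sites. At Esrrb, chr12:86501558-86502487, folds were 15.9 and 16.5 untreated and 12.4 and 13.0 treated, a log2 ratio of -0.35 beside the median of -1.22. At the Zfp42 promoter printed above, folds were 25.8 and 25.9 untreated and 13.2 and 14.5 treated. The RNA of both genes fell, with log2 changes of -1.27 ± 0.04 SE (adjusted p = 2.97e-08, limma) for Esrrb and -0.79 ± 0.04 SE (adjusted p = 5.04e-07) for Zfp42.

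The Krüppel-like factors of ES cells had strong sites of their own. The Klf4 promoter site had folds of 21.98 and 21.2 untreated and 8.54 and 8.68 treated, and the groups did not overlap. Klf5 had 28.0 and 25.2 before and 8.54 and 6.87 after. The Klf2 promoter site had 26.5 and 23.6 before, 5.44 in treated replicate 1, and no peak in treated replicate 2. A weaker Klf2 site 2668 bp from the start was called in all 4 libraries, with folds of 15.4 and 13.5 untreated and 5.91 and 7.23 treated. In the RNA, Klf2 fell (log2 change -1.36 ± 0.07 SE, adjusted p = 4.43e-07, limma), Klf4 rose (0.69 ± 0.08 SE, adjusted p = 5.78e-05), and Klf5 did not pass the test (0.02 ± 0.08 SE, adjusted p = 0.854).

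Some naive genes and the general pluripotency genes Sox2 and Sall4 kept no peak at their strongest site. Tfcp2l1, a LIF target and naive factor, had 5 untreated sites and all were lost, the strongest at 17.3 and 14.9. Its promoter site, printed above with 2 motif matches, stood at 9.85 and 11.8. Prdm14 had 1 site, at 10.5 and 7.81, and Sox2 had 2, the stronger at 11.4 and 9.43, all without treated peaks. Tbx3 and Sall4 lost their strongest sites, at 21.5 and 17.3 and at 14.3 and 18.1, but each kept a weaker one. The lost Sall4 site lay outside the gene, with its summit 145 bp from the start of Atp9a. The kept Sall4 site, chr2:168765078-168766185, lay inside the gene. It had 12.1 and 10.0 untreated and 10.1 and 11.4 treated, so its groups overlapped. RNA fell for Tfcp2l1, Prdm14, Sox2 and Sall4 (log2 changes -0.70, -1.45, -0.50 and -0.42, adjusted p of 5.43e-06, 2.22e-07, 4.56e-05 and 5.09e-05, limma) and did not pass the test for Tbx3 (0.14 ± 0.06 SE, adjusted p = 0.0550). Nr0b1, which had no KLF4 site, rose (1.18 ± 0.05 SE, adjusted p = 1.71e-07, limma).

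Socs3, Id1, Id3 and Cdh1 kept their strongest sites at reduced fold. The Socs3 promoter, which responds to STAT3 and encodes a feedback inhibitor of the LIF pathway, had 28.6 and 31.4 untreated and 6.21 and 7.63 treated. Id1 and Id3 encode helix-loop-helix inhibitors induced by BMP. The strongest Id1 site, chr2:152725532-152728694, lay outside the gene and had 49.3 and 48.0 untreated and 11.1 and 13.7 treated. The other 4 untreated Id1 sites were lost, with the one that overlapped the gene at 8.27 and 6.29. The Id3 promoter had 19.7 and 22.01 untreated and 6.99 and 6.87 treated. Cdh1, the gene of E-cadherin, had 16.1 and 15.7 untreated and 7.38 and 7.23 treated at its strongest site. At all 4 genes the groups were far apart. Socs3 RNA fell (-0.56 ± 0.06 SE, adjusted p = 2.70e-05, limma), as did Id3 (-0.79 ± 0.10 SE, adjusted p = 6.24e-05) and Cdh1 (-0.33 ± 0.04 SE, adjusted p = 7.06e-05), while Id1 rose (0.83 ± 0.08 SE, adjusted p = 1.01e-05).

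**Figure D3:**
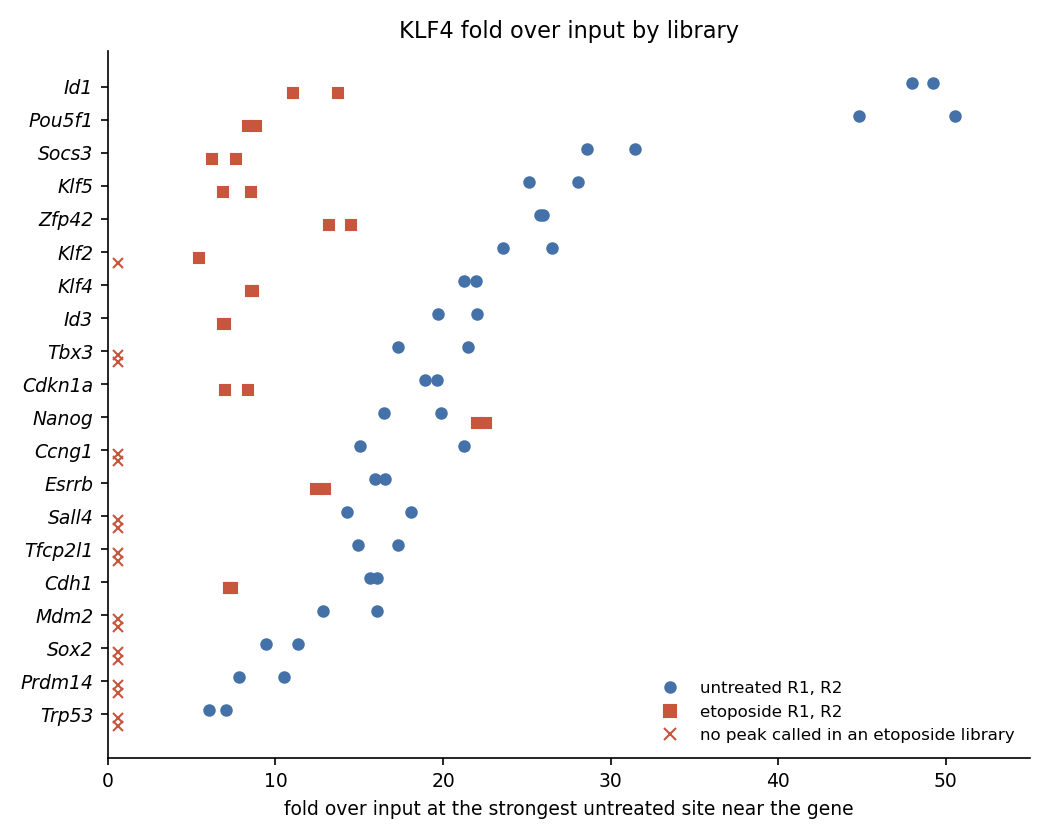
Fold over input in each WT library at the strongest untreated KLF4 site near 20 genes, ordered by mean untreated fold; circles are untreated and squares treated libraries, and crosses at the left edge mark a treated library with no peak called, not a value of 0. Treated values lie to the left of untreated ones except at Nanog, and both treated libraries lack a peak at 8 genes.

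Among genes of the P53 response, Cdkn1a kept its strongest site and Mdm2, Ccng1 and Trp53 kept none of their untreated sites. Cdkn1a encodes the cell cycle inhibitor p21. Its promoter site chr17:29093245-29095555 had 18.9 and 19.7 untreated and 6.99 and 8.39 treated, and a weaker site at the upstream start, at 7.46 and 7.12, had no treated peak. At Mdm2, which encodes the P53 ubiquitin ligase, untreated folds were 16.1 and 12.8, and at Ccng1 (cyclin G1) 15.0 and 21.2, with no treated peak at either. The strongest untreated Trp53 site, at 6.06 and 7.08, also had no treated peak. A further site inside Trp53, chr11:69581322-69582185, had no peak in untreated replicate 1, a fold of 3.93 in untreated replicate 2, and 5.44 and 6.10 in treated cells, with a P53 peak gained. At the kept Cdkn1a site and the lost Mdm2 and Ccng1 sites a P53 peak was called in both treated libraries and in no untreated one. RNA of Mdm2, Ccng1 and Trp53 rose (log2 changes 1.18 ± 0.04, 0.65 ± 0.04 and 0.60 ± 0.05 SE, adjusted p of 6.00e-08, 1.12e-06 and 6.48e-06, limma), and Cdkn1a fell (-0.23 ± 0.05 SE, adjusted p = 0.00270).

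The kept sites with the highest treated folds included regions that also gave P53 peaks without damage. The highest, chr1:24611429-24616317, had 99.5 and 108 untreated and 208 and 203 treated, and mitochondrial DNA came next, with 149 and 145 untreated and 197 and 209 treated. Both overlapped P53 peaks of both untreated WT libraries, as did the Garnl3 promoter. The others were at the promoters of Abtb1 (65.2 and 66.7 untreated, 69.7 and 67.7 treated), Garnl3 (102 and 104 untreated, 64.5 and 64.9 treated), Brpf1, a histone acetyltransferase subunit (73.5 and 67.6 untreated, 59.0 and 59.5 treated), and near Klf16 (65.4 and 65.3 untreated, 55.1 and 53.4 treated). Abtb1 was thus higher and the other 3 lower after treatment. Abtb1 and Brpf1 lie on chromosome 6, and their RNA rose (log2 changes 1.95 ± 0.08 and 1.77 ± 0.05 SE, adjusted p of 1.08e-07 and 2.57e-08, limma).

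The strongest lost sites had untreated folds above the median of kept sites. Some are given with a gene up to 50 kb away, which is not always the nearest. The starts of Gm11266 and Gm46926 lay 5206 and 17927 bp from the sites named below for Nfib and Micall2. The strongest lost site, chr5:129315277-129316246, had 65.9 and 57.4, and the nearest gene start, that of Gm34145, lay 7803 bp away. It was followed by sites near Il17a (47.0 and 47.2), at chr15:74186717-74188194 (46.2 and 44.0), inside Rasa4, a Ras GTPase-activating gene (46.5 and 42.6), near Nfib (37.1 and 41.7) and 19553 bp from Micall2 (41.7 and 37.0). None had a treated WT peak. RNA rose for Rasa4 (log2 change 0.36 ± 0.07 SE, adjusted p = 0.00142, limma), fell for Nfib (-0.95 ± 0.10 SE, adjusted p = 1.90e-05) and did not pass the test for Micall2 (-0.03 ± 0.08 SE, adjusted p = 0.719). Except for the first and the one near Il17a, these sites were called in all 6 treated libraries of the other lines. The Il17a site, chr1:20743762-20744388, was called in 0 of the 12 libraries of those lines.

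Lost WT sites were often still called in the other lines, and more so when they were strong. Of all 16283 lost sites, 38.8% had a peak in all 6 untreated libraries of the other lines, 20.4% in all 6 treated ones, and 18.1% in no untreated one. For the 124 lost sites in the highest decile of untreated fold, 92.7% were in all 6 untreated and 79.0% in all 6 treated libraries. Of the 4800 kept sites, 99.0% were in all 6 untreated and 95.6% in all 6 treated libraries. By line, the lost sites had a peak in both treated libraries in 44.4% of cases in lnc956_KO, 26.2% in FL_rescue and 52.2% in delta862-1253_rescue cells. In both untreated libraries of the same lines the shares were 51.3%, 59.5% and 58.3%. The sites were chosen for having no treated WT peak, so these shares describe the other lines only, and no test between lines was made.

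With overlap by 1 bp or more on the full lists, gained sites were few, weak and concentrated. More were gained with other matching or equal lists, as given above. The untreated lists were far longer, which leaves fewer treated sites without an untreated peak. Treated folds of the 176 gained sites had medians of 6.27 and 6.49, and the strongest, chr4:78513260-78513731, had 11.5 and 10.2. Chromosomes 6 and 8 held 50 and 48 of the 176, together 55.7%, against 0 to 15 on any other chromosome. P53 peaks of both untreated WT libraries overlapped 73 of them (41.5%), against 4.65% of kept and 0.700% of lost sites, and 67 of the 126 gained sites outside chromosome 6 (53.2%). Of the other strong ones, 2 lay inside Kctd8 and Ninj2, 1 was 7342 bp from Ubqln5 and 1 was 49838 bp from Atg7, and all 6 strongest were called in every library of the other lines. Of the gained sites, 102 were listed in all 6 untreated libraries of the other lines and 29 in none.

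Chromosome 6 differed from the rest in each measure. There, 39.3% of 997 untreated sites were kept, against 16.1% to 23.7% on the other chromosomes except chromosome 8 (28.9%) and Y (41.9% of 31 sites). The median log2 ratio of fold at its kept sites was -0.51, against -1.42 to -1.10 elsewhere, with -1.03 on chromosome 8 and -0.77 on Y. Both treated folds were above both untreated folds at 14.8% of its shared sites. Without it, the median log2 ratio over the other chromosomes was -1.26. One stretch, chr6:114340989-114724594, held 89 sites, of which 58 were kept and 70 overlapped P53 peaks of untreated cells. Every KLF4 library had 79 to 98 peaks in it and every P53 library, the Lnc956 knockdown ones included, 73 to 86.

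**Figure D4:**
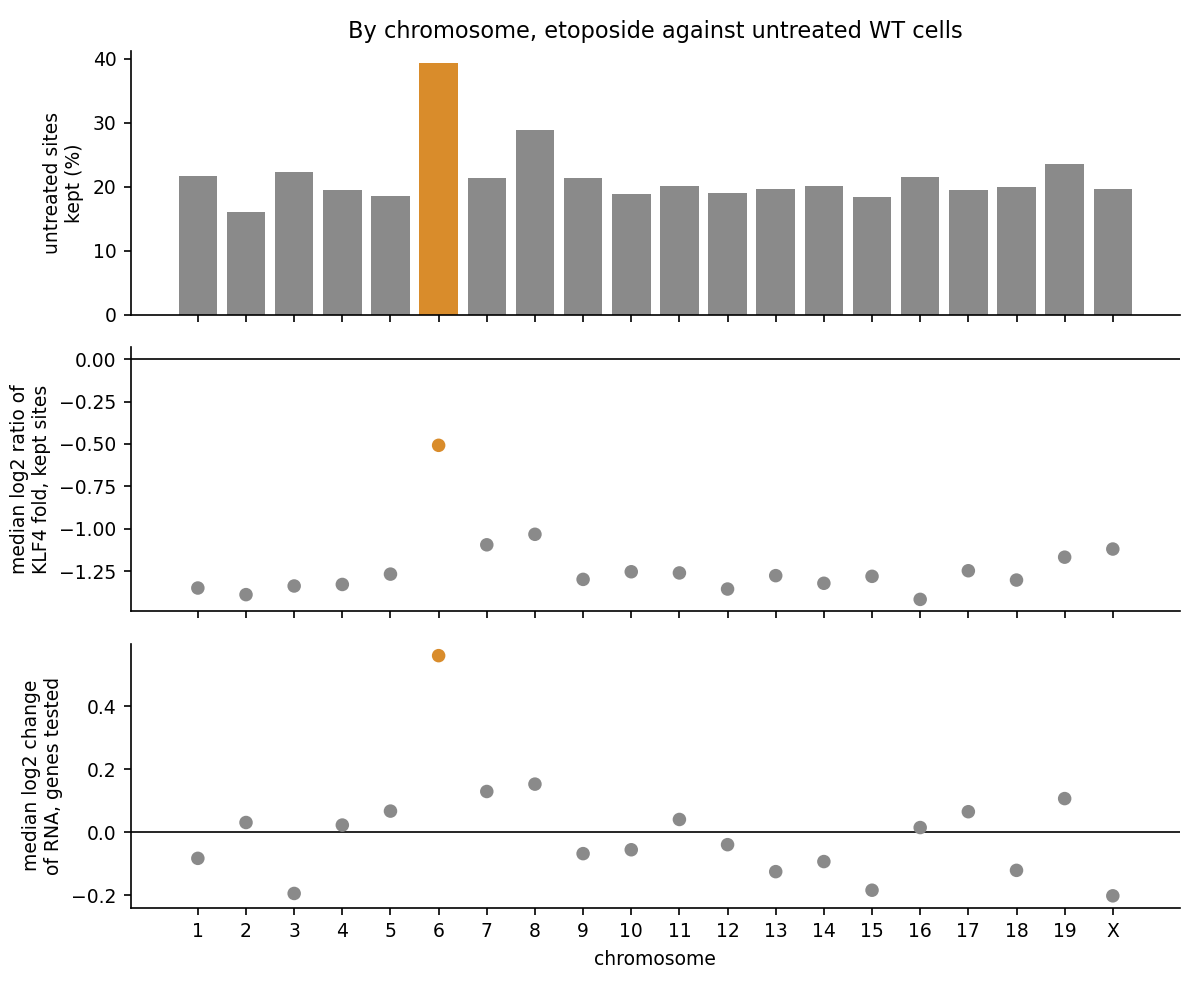
Share of untreated KLF4 sites kept (top, bars), median log2 ratio of treated to untreated fold at kept sites (middle) and median log2 change of RNA over the genes tested (bottom), by chromosome; chromosome 6 is orange, and Y, with 31 untreated sites, is not drawn. Chromosome 6 stands highest in all 3 panels, at 39.3%, -0.51 and 0.56.

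Kept sites lay nearer to gene starts than lost ones. Of kept sites with a listed gene start on their chromosome, 61.9% had their summit within 1 kb of one, against 35.0% of lost and 8.67% of gained sites, with median distances of 261, 4785 and 20724 bp. This went with strength. In the highest decile of untreated fold, 91.5% of sites within 1 kb and 85.4% of those farther away were kept, and in the ninth decile 57.3% and 56.3%. With equal list lengths the gap between kept and lost sites within 1 kb was 8.13 percentage points, in place of 26.9 (28.4 without chromosome 6). Kept sites were also wider, with a median merged width of 1307 bp against 621 bp for lost sites.

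Promoters with a kept summit more often held the KLF4 motif. GGGNGTGG, searched on both strands, was present in 39.6% of 1764 promoters with a kept summit, 23.8% of 2537 with a lost summit and 15.4% of 27585 with no summit, beside 17.6% of all 32817 promoter windows. The narrower GGGTGTGG, a subset of those matches, was in 6.69%, 4.38%, 3.26% and 3.56%. The gap between kept and lost was 15.8 percentage points, and 15.9 without chromosome 6. Base composition moved the same way, with median GC of 67.3%, 64.7% and 50.7% in kept, lost and summit-free promoters, and its part in the motif shares was not tested. Kept sites were also stronger than lost ones before treatment, and the motif shares were not compared at equal strength.

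P53 peaks that appeared with etoposide were found at kept sites more often. P53 was mapped with an antibody to its form phosphorylated at serine 15. Of kept sites, 30.8% overlapped a P53 peak of both treated WT libraries, against 5.79% of lost sites, a gap of 25.0 percentage points (24.1 without chromosome 6). Counting only P53 peaks absent from both untreated libraries, the shares were 25.4% of kept, 5.03% of lost and 6.82% of gained sites. By decile of untreated fold the share was higher at kept than at lost sites in 9 of 10 and lower in 1. It was 32.4% against 6.45% in the highest decile, 23.0% against 9.29% in the ninth, 6.84% against 5.73% in the fifth and 3.13% against 3.48% in the second. The P53 lists come from other libraries and were not used to define kept or lost, but kept sites are wider, which makes an overlap more likely, and this was not tested.

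Genes near these sites were grouped by their best site. Of 13662 protein-coding genes with an untreated site within 10 kb of the gene body, 5546 (40.6%; 40.2% without chromosome 6) had a kept site and 7581 had lost sites but no kept one. The kept share followed the number of untreated sites, from 26.2% of genes with 1 site to 77.7% of genes with 5 or more. Lists of known genes are read beside that 40.6%.

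Pluripotency and signalling lists stood as follows. A kept site was present at 12 of 17 naive pluripotency genes with an untreated site, 7 of 13 general pluripotency genes, 3 of 10 formative and primed genes, 8 of 12 genes of the LIF and STAT3 pathway, 6 of 11 of the BMP and Id axis, and 8 of 13 of the Nodal pathway. At the level of single sites, 32.6% of 46 naive, 35.5% of 31 LIF and STAT3 and 35.7% of 28 Nodal sites were kept, as were 20.5% of 39 general pluripotency, 20.0% of 15 formative and primed and 21.9% of 32 BMP and Id sites, beside 21.9% of all 19819 untreated sites near protein-coding genes. Median untreated fold was 9.18 at naive, 11.5 at LIF and STAT3 and 11.9 at Nodal sites. It was 9.055 at general pluripotency, 8.45 at formative and primed and 9.61 at BMP and Id sites, beside 8.91 over all 19819. The part of this strength in the kept shares was not tested. The 15 kept naive sites, which include the Nanog site on chromosome 6, had a median log2 ratio of -0.69. It was -1.25 over kept sites near protein-coding genes. Over all lists it ran from -1.47 at 19 P53 target sites to -0.48 at 5 trophectoderm sites. Weak kept sites had less negative ratios, as given above, and the part of strength in these list values was not tested. Pim1, a kinase gene induced by STAT3, had 53.3 and 42.2 untreated and 31.2 and 29.8 treated, and Foxh1, a cofactor of Nodal signalling, 57.2 and 50.5 untreated and 37.7 and 38.2 treated. At both the treated values were lower but stayed among the higher ones. Tdgf1, a Nodal co-receptor, had 9.37 and 9.25 untreated and 10.1 and 12.2 treated, and Dnmt3l, a cofactor of DNA methylation, 7.36 and 4.78 untreated and 11.3 and 10.4 treated, so that both were higher after treatment.

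The Krüppel-like and Sp factor genes, whose proteins bind related GC-rich sequences, had a kept site at 15 of 19 genes with one, and 39.2% of their 51 sites were kept. Their sites had a median untreated fold of 11.2, beside 8.91 over all untreated sites near protein-coding genes. All 20 of their kept sites had both treated folds below both untreated folds, near the 92.9% of all shared sites. Klf3 had 76.5 and 73.9 untreated and 38.1 and 37.4 treated, and Sp1 54.9 and 60.5 untreated and 44.3 and 44.1 treated. Among the genes of the damage response, 15 of 29 P53 targets and 8 of 23 DNA repair genes with a site kept one. Sesn1, a stress-response gene induced by P53, had 62.9 and 59.1 untreated and 26.4 and 25.9 treated, and Fancd2, a crosslink repair gene on chromosome 6, 9.78 and 11.01 untreated and 11.6 and 10.7 treated, with overlapping groups. Immediate early genes kept a site at 8 of 13, with Jund at 53.7 and 49.99 untreated and 36.5 and 36.0 treated. Cell cycle lists gave 5 of 15 for G2 and mitosis and 11 of 18 for G1/S and replication, chromatin regulators 8 of 14, and epithelial genes 6 of 16. Lists of other cell types gave 3 of 7 for trophectoderm, 2 of 6 for primitive endoderm and 3 of 8 for fibroblast and feeder genes. Of single sites, 30.2% of 63 P53 target, 34.1% of 44 DNA repair and 27.9% of 43 immediate early sites were kept. The share was 21.7% of 23 for G2 and mitosis, 28.8% of 59 for G1/S and replication and 39.3% of 28 for chromatin regulators. It was 15.9% of 44 for epithelial genes and 25.0% of 20 for trophectoderm. Primitive endoderm gave 16.7% of 12 and fibroblast and feeder genes 15.8% of 19. Over all 19819 untreated sites near protein-coding genes it was 21.9%.

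**Figure D5:**
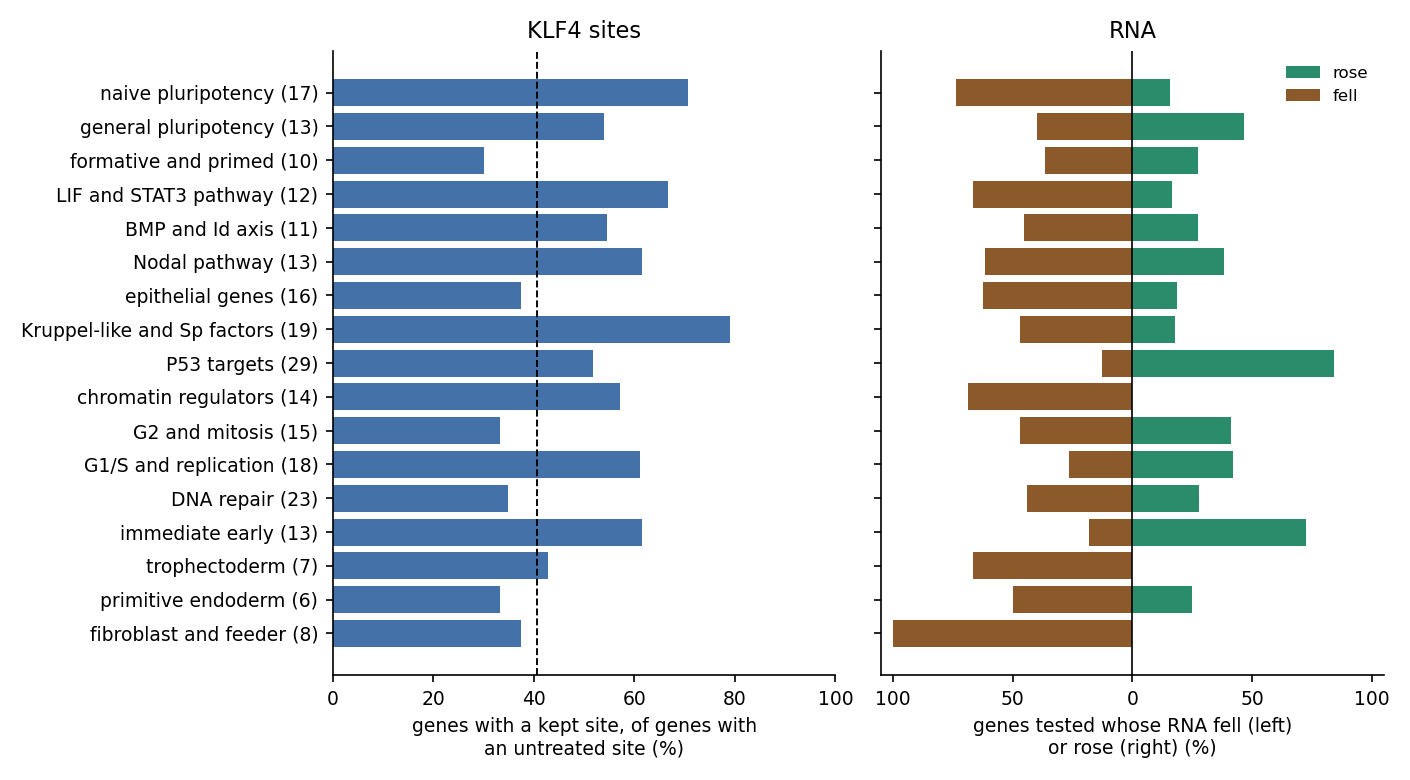
For each gene list, the share of genes with a kept KLF4 site among those with an untreated site (left, number of such genes in parentheses; the dashed line is 40.6%, the share over protein-coding genes) and the share of genes tested whose RNA fell or rose at an adjusted p under 0.05 (right, limma). Krüppel-like and Sp factors and naive pluripotency genes stand highest on the left, and on the right 27 of 32 P53 targets rose and all 17 fibroblast and feeder genes fell.

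RNA of WT cells with and without 10 µM etoposide, from libraries not used for the KLF4 lists, gives a second readout; its treatment time was not among the labels used. Of 12733 genes tested, 5001 (39.3%) rose and 4791 (37.6%) fell at an adjusted p under 0.05 (limma, 2 libraries a group, one spread estimated over 8). Of the genes with a kept site, 2035 rose and 1731 fell of 4800 tested, or 42.4% and 36.1%. Of the genes with lost sites only, 1961 rose and 2053 fell of 5261 tested, or 37.3% and 39.0%. Genes with no KLF4 peak had 380 that rose and 414 that fell of 1037, or 36.6% and 39.9%. Median log2 changes were 0.05, -0.03 and -0.04, beside 0.01 over all genes, so all 3 classes were near the background. Without chromosome 6 the kept genes stood at 40.5% and 37.4%, with a median of 0.03. A fall of 2-fold or more was seen in 15.2% of genes with no peak, 7.15% of lost and 5.58% of kept genes, beside 7.18% of all. The 15.2% stands for 158 of 1037 genes with no peak. Of the 17 listed fibroblast and feeder genes, all of which fell, 7 had no KLF4 peak. The list is short, and the part of fibroblast or feeder RNA in the 15.2% was not tested.

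By list, 14 of 19 naive pluripotency genes tested fell and 3 rose, and 8 of 12 LIF and STAT3 genes fell and 2 rose, beside the 37.6% and 39.3% over all genes. General pluripotency genes gave 7 that rose and 6 that fell of 15, formative and primed genes 3 and 4 of 11, BMP and Id genes 3 and 5 of 11, and Nodal genes 5 and 8 of 13. Krüppel-like and Sp factors gave 3 and 8 of 17, epithelial genes 3 and 10 of 16, and chromatin regulators 0 and 11 of 16. P53 targets were the reverse, with 27 that rose and 4 that fell of 32, and immediate early genes gave 8 and 2 of 11. DNA repair gave 7 and 11 of 25, G2 and mitosis 7 and 8 of 17, G1/S and replication 8 and 5 of 19, trophectoderm 0 and 4 of 6, and primitive endoderm 1 and 2 of 4. Site and RNA moved in the same direction at some genes and not at others. Pim1 had a lower but still strong site, and its RNA also fell, from 44.2 and 43.1 FPKM to 9.93 and 9.92 FPKM (log2 change -2.03 ± 0.05 SE, adjusted p = 1.21e-08, limma). Tdgf1 RNA fell although its site was higher (-1.08 ± 0.08 SE, adjusted p = 2.93e-06, limma). Sesn1 rose, with a lower site (0.38 ± 0.08 SE, adjusted p = 0.00141).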

How the data were processed

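KLF4 and P53 ChIP-seq peak lists and RNA-seq values of mouse ES cells were used. The build mm10 and the tools Bowtie2 2.1.0 and MACS2 2.2.7.1 are named, per the submitters' processing notes; TopHat2 2.0.8 and Cufflinks 2.1.1 are also named. The deposited narrowPeak lists give a fold over input (a ratio), a −log10 q value and a summit for each peak. Peak names show that the authors called every library separately; the peak cutoff was not stated in these sources, and the smallest deposited −log10 q was about 2. Gene expression was deposited by the authors as FPKM. Neither read totals nor input depth are known, so no counting interval was set.

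Members and lists were chosen with earlier results of these data known. Peaks overlapping by 1 bp or more were merged, and a library's fold at a site is its highest peak. Folds are the authors' own values and were only described; exact two-sided permutation tests compared library summaries. Deciles divide untreated sites by mean untreated fold. Gene bodies (within 10 kb) come from RefSeq GRCm38.p6, as do 32817 distinct promoter windows of 300 bases that also supplied gene starts. RNA was tested with limma 3.58.1 (R 4.3.3) on log2(FPKM + 1), trend on, genes with 1 FPKM or more in at least 2 of the 8 libraries (WT and Lnc956 knockdown, with and without etoposide), Benjamini-Hochberg adjusted; fold changes are on that scale, which understates low genes. Its steps were tested on simulated data. Of symbols on several rows, 140 with differing values were left out, and 12102 of the genes tested had a position. Named genes were the 21 genes listed in the text, the 6 strongest kept, lost and gained sites, the 5 most and least reduced sites (1 of them is not reported here), and up to 3 members a list with the highest untreated and up to 2 with the highest treated fold. Same-numbered replicates did not deviate together (correlation of deviations -0.007 in KLF4, -0.16 in RNA), so no block was used. Python 3.11.15, numpy 2.4.6 and pandas 2.3.3 were used.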

Additional observations from a re-analysis of the deposited data

How the results depend on the processing

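The direction of the peak number and of the median fold held without each KLF4 library in turn and at a −log10 q of 5 or more; the median log2 ratio turned to 0.13 once folds were divided by each library's median over the shared sites, which removes the common shift by construction. Leaving out single KLF4 libraries gave 4841 to 6004 kept, 16539 to 24125 lost and 198 to 454 gained sites, gaps between the highest and lowest decile of 81.7 to 91.9 points, within 1 kb of 24.8 to 32.4, for P53 of 21.8 to 26.1, for the motif of 13.7 to 15.8, and 38.3% to 48.3% kept genes. A −log10 q of 5 or more gave 22.3 points within 1 kb and 38.2% kept genes. Matching summits within 200 bp gave 942 gained sites, 73.0 points between deciles, 23.5 for P53 and 31.1% kept genes. Overlap by 0.5 of both peaks gave 2408 kept and 1547 gained sites, 57.8 points between deciles, 23.3 within 1 kb, 29.1 for P53 and 23.0% kept genes. Equal list lengths gave 1242 lost and 1051 gained sites, 64.2 points between deciles, 8.13 within 1 kb, 12.1 for the motif and 72.1% kept genes. A site in either library gave 27494 lost and 547 gained; without sites at P53 peaks of untreated cells (chosen after seeing the data) 103 were gained. Kept genes were 35.5% by sites within 5 kb of a start and 34.1% by the nearest start, and GGGTGTGG gave a motif gap of 2.31 points.

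In the RNA, sites within 5 kb of a start left 1328 kept genes that rose and 1133 that fell, and the nearest start 1205 and 1078; genes with no peak then numbered 1373 and 1474, and 1547 and 1613. With no filter on low values genes with no peak gave 672 and 628. Leaving out single RNA libraries gave 1791 to 1933 kept genes that rose and 1550 to 1654 that fell, and 313 to 347 and 371 to 392 for genes with no peak. Klf5 turned to -0.046 with quantile scaling and ranged from -0.12 to 0.15 without single RNA libraries, below 0 without untreated replicate 2 or treated replicate 1, and never passed the threshold. Tbx3 passed it with the replicate block (adjusted p = 0.0497) and without treated replicate 2. The replicate block gave 2019 kept genes that rose and 1717 that fell, 1937 and 2028 lost ones and 379 and 421 with no peak; pairing the replicate numbers crosswise (chosen after seeing the data) gave 2007 and 1717 kept genes. The cause of these shifts was not tested. A paired comparison of the KLF4 folds was not run. The motif around summits, in windows of 50 or 100 bp, was not run, since no genome was used here. Peak lists without read totals limit every count: a site absent from a list was not called, which is not the same as unbound.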

Other observations

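Among kept sites, the largest reductions were at Pde8b, a phosphodiesterase gene (chr13:95215501-95216365), with folds of 55.3 and 50.3 untreated and 5.44 and 6.10 treated, and at chr4:153669954-153670911, with 58.7 and 55.03 untreated and 6.99 and 7.63 treated. Pcnx4 and Crtc1 followed, with log2 ratios of -2.85 and -2.72. The 5 sites that were raised most had log2 ratios of 1.10 to 1.32 and untreated folds of 4.41 to 7.58. Of these 5, 4 overlapped P53 peaks of both untreated WT libraries, and 2 lay in the chromosome 6 stretch. Over all shared sites, the 223 with such P53 peaks had a median log2 ratio of -0.71 and both treated folds above both untreated folds in 15.3%, against -1.23 and 1.92% for the others.

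Some listed genes on chromosome 6, Mcm2, Xpc and Fancd2, showed a kept KLF4 site and higher RNA together. Mcm2, a replication helicase subunit, had folds of 23.7 and 16.2 untreated and 13.2 and 13.0 treated, and its RNA rose by 1.75 ± 0.04 SE (adjusted p = 1.23e-08, limma). Xpc, a nucleotide excision repair gene, had 26.5 and 25.3 untreated and 21.4 and 19.5 treated, and rose by 1.27 ± 0.09 SE (adjusted p = 1.88e-06). Fancd2 rose by 1.56 ± 0.05 SE (adjusted p = 4.30e-08). These genes were picked after their values were seen, and the part of chromosome 6 as a whole was not tested.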
